A study of Mus musculus with 88 samples.

Results

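The genes examined here are 10 genes by which astrocytes keep the surroundings of neurons constant: Aqp4, Kcnj10, Slc1a2, Slc1a3, Glul, Gja1, Gjb6, Aldh1l1, Etnppl and Aldoc. They were taken by name, as the rows of the deposited count table whose Ensembl identifiers map to these symbols, and they are 10 of its 54532 rows. All 10 passed the filter on low counts in every fit below. The series holds 88 polyadenylated RNA libraries from the cortex of 44 C57BL/6 mice, 1 library from each hemisphere of each mouse. Mice of both sexes, 8 to 9 weeks old at surgery, received a controlled cortical impact, in which a piston strikes the exposed brain. The skull was opened by 3 mm above the somatosensory cortex of the right hemisphere, and a tip of 2 mm was driven 1 mm deep. Punches of 4 mm were taken around the injury (ipsilateral) and from the opposite cortex (contralateral) at 24 h or 72 h, and from naive mice, whose right punch carries the ipsilateral label. The groups compared held, on each side, 7 female and 6 male naive mice, 7 female and 8 male mice at 24 h, and 9 female mice at 72 h with 6 male ipsilateral and 7 male contralateral libraries. All mice were perfused before sampling. Injured mice alone had anaesthesia, craniotomy and buprenorphine, and naive mice were the controls throughout, so impact, surgery and drug cannot be told apart in any comparison with naive mice. A punch mixes all cell types of the cortex, and fewer astrocytes and less RNA per astrocyte cannot be told apart in it.

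Astrocytes wrap synapses and blood vessels and clear what neurons release. Glutamate is taken up by the transporters GLT-1 (Slc1a2) and GLAST (Slc1a3) and turned into glutamine by glutamine synthetase (Glul), potassium passes through the inward rectifier Kir4.1 (Kcnj10), and water crosses the vascular endfeet through aquaporin-4 (Aqp4). Connexin 43 (Gja1) and connexin 30 (Gjb6) join astrocytes into a network through which ions and metabolites spread. Aldh1l1 is an enzyme of folate metabolism used as a general astrocyte marker, Etnppl breaks down phosphoethanolamine, and Aldoc is the aldolase of glycolysis that is typical of brain.

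In naive cortex the levels of the 10 genes were compared per length, as counts scaled to 1000000 per library (CPM) and per kilobase of annotated exon. The medians over the 26 naive libraries were 449 for Glul, 292 for Slc1a2 and 222 for Aldoc, the 3 highest. Slc1a3 (63.6) and Kcnj10 (42.7) came next, followed by Gjb6 (21.9), Gja1 (16.6), Aldh1l1 (15.6) and Aqp4 (14.7), and Etnppl was lowest at 2.36. Each gene's range over libraries overlapped that of its neighbour in this order, except that Aldoc lay above Slc1a3, Kcnj10 above Gjb6 and Etnppl below Aqp4 in all libraries. All other levels below are CPM of whole genes, which compare libraries and not genes.

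Total counts were 10604917 to 26357622 per library, with a median of 16249949, and mitochondrial transcripts took 2.35 to 10.5% of counts. The ipsilateral medians of that share were 5.02% in naive, 3.94% at 24 h and 3.17% at 72 h. Both libraries of animal LF3 (female, 72 h) stood apart: their log2 CPM over 15925 genes correlated with their group's median at 0.851 ipsilaterally and 0.856 contralaterally, against at least 0.959 in every other library. They had the highest mitochondrial shares, 10.5% and 7.80%, and the lowest level of every member among the 72 h libraries of their side. The contralateral library of animal QF1 (female, 24 h) held 874 CPM of the astrocyte filament gene Gfap, against 80.6 to 268 CPM in the other 14 contralateral libraries at 24 h, and its ipsilateral library had the lowest Aqp4 and Kcnj10 of that time. Calls of the members, and counts of the lists below, that change without these 2 animals are given both ways. The ipsilateral library of animal PF1, labelled female, carries male transcripts and was kept as labelled. That of animal PM1 has contradictory labels on sex, carries female transcripts and entered no comparison, and whether these 2 libraries were exchanged was not tested. Without PF1 the calls of members between the sides stayed as below, except that Gja1 was called at 72 h (0.19, adjusted p = 0.0378).

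At 24 h the ipsilateral cortex held fewer transcripts of most of these genes. Against naive, 8 of the 10 members fell and 1 rose, at an adjusted p under 0.05 (edgeR quasi-likelihood F test, mean of the female and the male change, Benjamini-Hochberg over all genes tested). Over all 19126 genes tested, 20.1% were called lower and 22.9% higher. The median log2 fold change of the members was -0.69, beside 0.00565 over all genes. Etnppl, Gjb6, Gja1 and Glul fell to 41.3%, 41.9%, 42.0% and 46.0% of the naive level, and Slc1a2, Slc1a3, Aldoc and Kcnj10 to 57.4%, 66.8%, 70.4% and 75.9%. Aldh1l1 rose to 126%.

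At 72 h the members lay on both sides of naive: 5 were lower (background 20.7%), 3 were higher (background 27.8%) and 2 were not called, with a median of -0.41 beside 0.0551 over all genes. The counts at 72 h were the same without LF3 and QF1, and the median was -0.26. Between 24 h and 72 h, 6 members rose (background 21.7%) and 2 fell further (background 15.3%). These comparisons share the naive or the 24 h libraries.

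**Figure D1:**
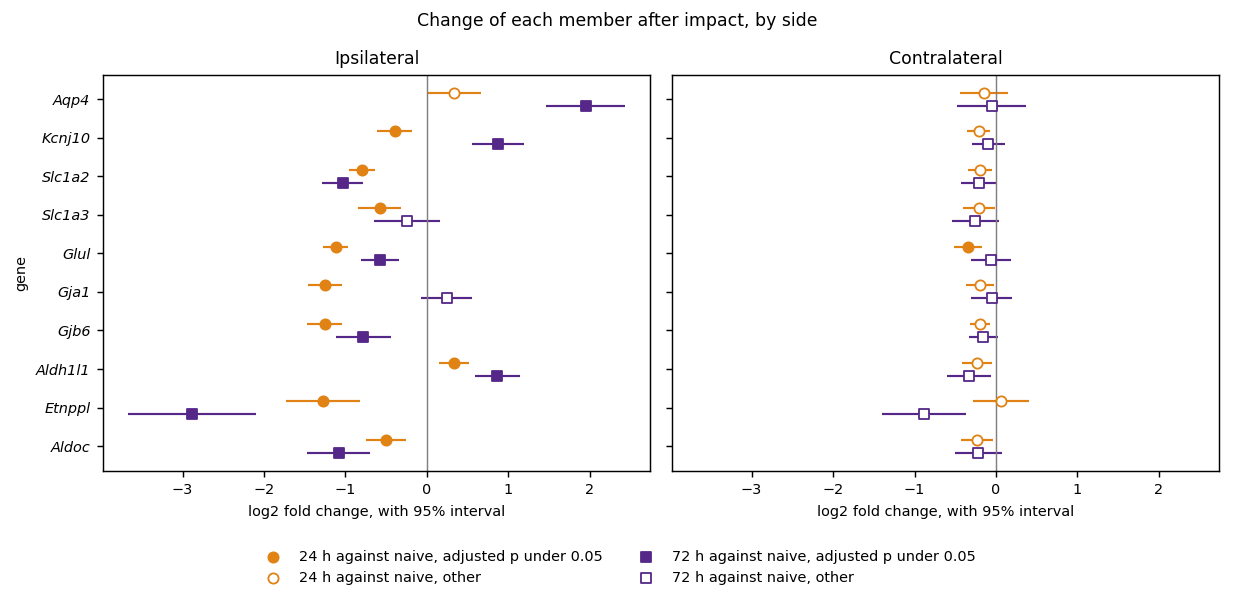
Log2 fold change of each of the 10 genes against naive at 24 h and 72 h, ipsilateral and contralateral, with 95% intervals; filled symbols have an adjusted p under 0.05. Ipsilaterally, Aqp4, Kcnj10 and Aldh1l1 are called above 0 at 72 h, Gja1 lies above 0 without a call, and Etnppl reaches -2.88. Contralaterally, Glul at 24 h is the only member called.

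Aqp4, the water channel of the endfeet, was the member with the highest ratio to naive at 72 h. Ipsilateral levels were 32.5 to 117 CPM (median 87.1) in naive mice, 33.4 to 157 CPM (median 109.5) at 24 h and 72.2 to 416 CPM (median 303) at 72 h. At 72 h, 14 of 15 libraries lay above every naive library, the exception being that of LF3. Such counts of libraries, here and below, were made for the members alone, with no share over all genes beside them. Aqp4 was not called at 24 h (0.34 ± 0.16 (SE) on the log2 scale, adjusted p = 0.0924, edgeR), and was called higher without LF3 and QF1 (0.38, adjusted p = 0.00773). At 72 h it stood 1.95 ± 0.24 above naive (386% of naive, adjusted p = 1.02e-08) and 1.61 ± 0.21 above 24 h (adjusted p = 1.58e-07).

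Kcnj10, the potassium channel, fell and then rose past its starting level. Its ipsilateral levels were 169 to 287 CPM (median 229) in naive mice, 109 to 220.2 CPM (median 192) at 24 h and 139 to 562 CPM (median 464) at 72 h. The naive and 24 h ranges overlapped, with 4 of 15 libraries at 24 h below all naive libraries, whereas 14 of 15 at 72 h lay above them and that of LF3 below. The log2 change was -0.40 ± 0.10 at 24 h (adjusted p = 0.00179) and 0.87 ± 0.16 at 72 h (adjusted p = 1.25e-05), and the rise between the times was 1.27 ± 0.14 (adjusted p = 4.33e-09).

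**Figure D2:**
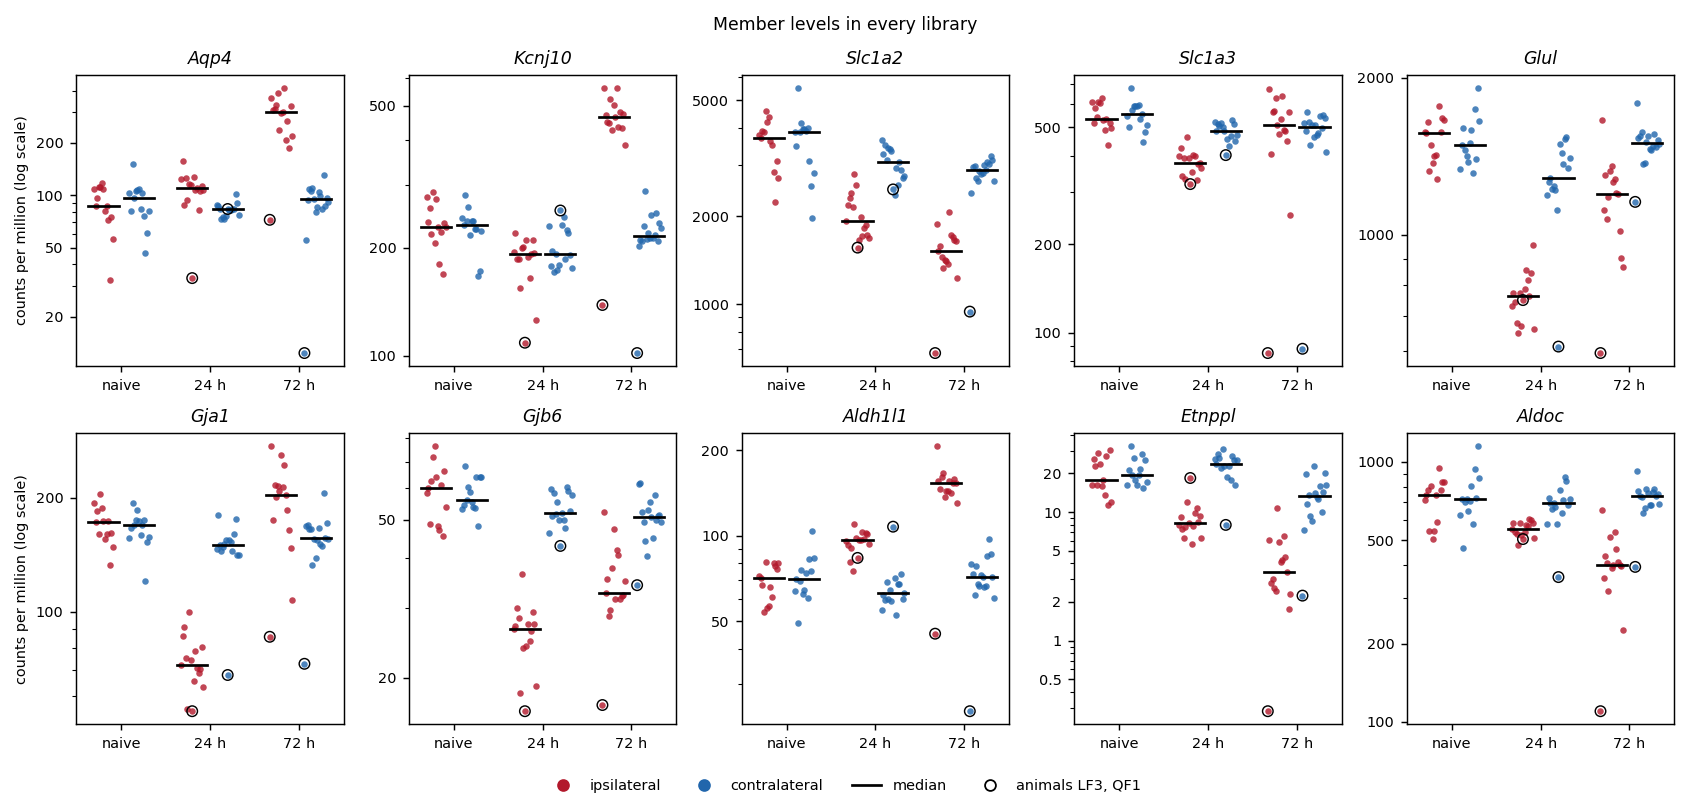
CPM of each member in every assigned library, on a log scale, for naive, 24 h and 72 h mice, ipsilateral in red and contralateral in blue; bars are medians and rings mark animals LF3 and QF1. All 15 ipsilateral libraries at 24 h lie below all naive ipsilateral libraries in Glul, Gja1 and Gjb6, and all 15 at 72 h do so in Slc1a2 and Etnppl. How many of all genes separate in this way was not counted.

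The glutamate transporters both fell at 24 h and had different calls at 72 h, a difference between genes that was not itself tested. Slc1a2, which carries most of the uptake of glutamate in cortex, was at 2229 to 4574 CPM (median 3721) in naive ipsilateral cortex, 1561 to 2789 CPM (median 1920) at 24 h and 679 to 2072 CPM (median 1522) at 72 h. At 24 h 11 of 15 libraries, and at 72 h all 15, were below the lowest naive library. It fell by 0.80 ± 0.078 on the log2 scale at 24 h (adjusted p = 3.52e-11) and stood at -1.03 ± 0.12 at 72 h (adjusted p = 4.39e-09). Its change between the times was not called (-0.23 ± 0.11, adjusted p = 0.0947), and was called lower without animal LM2, a male at 72 h (-0.33, adjusted p = 0.0311). That change was also called lower in the fit with no batch term (-0.45, adjusted p = 2.03e-04).

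Slc1a3, the other glutamate transporter, fell at 24 h and was not called against naive at 72 h. Its ipsilateral levels were 434 to 629 CPM (median 532) in naive mice, 320.2 to 462 CPM (median 377) at 24 h and 85.2 to 675 CPM (median 509) at 72 h. At 24 h, 14 of 15 libraries were below every naive library. At 72 h, 3 were below and 3 above all naive libraries. The log2 change was -0.58 ± 0.13 at 24 h (adjusted p = 2.85e-04) and -0.25 at 72 h (95% interval -0.65 to 0.16, adjusted p = 0.316). Without LF3 alone the value at 72 h was -0.018, adjusted p = 0.931. The difference between 24 h and 72 h was not called over all animals (0.34 ± 0.18, adjusted p = 0.140), and was called higher at 72 h without LF3 and QF1 (0.55, adjusted p = 0.00109). With no batch term Slc1a3 was called at 72 h both below naive (-0.29, adjusted p = 0.0476) and above 24 h (0.33, adjusted p = 0.0248).

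Glul, which makes glutamine from the glutamate taken up, fell and then rose part of the way back. The naive ipsilateral levels were 1278 to 1766 CPM (median 1568), and all 15 libraries at 24 h, 649 to 957 CPM (median 762), lay below them. At 72 h the levels were 593 to 1660 CPM (median 1200), and 11 of 15 libraries were still below every naive library. Glul fell by 1.12 ± 0.075 at 24 h (adjusted p = 7.86e-16) and stood at -0.58 ± 0.12 at 72 h (adjusted p = 6.65e-05), and rose by 0.54 ± 0.10 between the times (adjusted p = 7.45e-05). Without LM2 that rise was smaller (0.36, adjusted p = 0.00530).

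The 2 connexins both fell at 24 h and had different calls at 72 h, a difference between genes that was not itself tested. Because of these courses the bases before their starts are shown, read from RefSeq (GRCm38.p6), each 250 bases up to the base before the annotated start and 5′ to 3′ on the strand of the gene. Gja1 is on the plus strand, chr10:56377050-56377299, and Gjb6 on the minus strand, chr14:57133612-57133861. Capitals mark a match to the AP-1 motif TGANTCA.
Gja1: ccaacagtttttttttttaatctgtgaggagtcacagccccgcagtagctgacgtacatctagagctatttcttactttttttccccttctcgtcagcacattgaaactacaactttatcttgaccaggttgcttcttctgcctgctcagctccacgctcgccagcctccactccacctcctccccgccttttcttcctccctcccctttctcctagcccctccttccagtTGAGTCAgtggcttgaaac
Gjb6: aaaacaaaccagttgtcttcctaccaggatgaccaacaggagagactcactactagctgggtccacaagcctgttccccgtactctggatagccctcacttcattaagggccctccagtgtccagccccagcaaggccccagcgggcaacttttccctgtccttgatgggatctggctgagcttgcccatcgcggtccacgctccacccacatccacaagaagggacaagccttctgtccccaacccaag
Both strands of these windows were searched for AP-1 (TGANTCA), the NFI motif (TTGGCA), the STAT motif (TTCNNNGAA) and a SOX motif (ACAANG), and no matches overlapped. Of the 32851 windows of the same length in the RefSeq table, 6.75% held AP-1, 12.3% the NFI motif, 7.02% the STAT motif and 36.3% the SOX motif. Gja1 held 1 AP-1 match, at position -19 from the start, and Gjb6 held none of the 4 motifs. Of the members, 9 of 10 had a window in the table, and in the first window listed for each gene AP-1 was found in Gja1, the NFI motif in Aldoc, and the STAT and SOX motifs in Slc1a3. A match describes these letters and not a bound site.

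Gja1 was at 133 to 204 CPM (median 173) in naive ipsilateral cortex, 54.5 to 99.8 CPM (median 72.5) at 24 h and 85.8 to 275 CPM (median 204) at 72 h. The 24 h libraries all lay below the naive range, and at 72 h 7 of 15 libraries lay above it and 2 below. Gja1 fell by 1.25 ± 0.10 at 24 h (adjusted p = 3.14e-13), rose by 1.49 ± 0.14 from 24 h to 72 h (adjusted p = 6.31e-11), and was not called against naive at 72 h (0.24, 95% interval -0.073 to 0.56, adjusted p = 0.20). Without LF3 alone this last value was called (0.36, adjusted p = 0.0471), and without LF3 and QF1 it was not (0.34, adjusted p = 0.0565).

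Gjb6 was at 45.4 to 76.6 CPM (median 60.0) in naive ipsilateral cortex, 16.5 to 36.6 CPM (median 26.5) at 24 h and 17.1 to 52.1 CPM (median 32.7) at 72 h. Every library at 24 h and 13 of 15 at 72 h lay below the naive range. Gjb6 fell by 1.26 ± 0.11 at 24 h (adjusted p = 8.16e-13) and stood at -0.78 ± 0.17 at 72 h (adjusted p = 1.50e-04). Its rise between the times was 0.47 ± 0.15 (adjusted p = 0.0114), and it was not called without LM2 (0.26, adjusted p = 0.210).

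Of the 3 enzymes, Aldh1l1 rose and the other two fell. Aldh1l1 was at 53.8 to 81.2 CPM (median 70.8) in naive ipsilateral cortex, 75.3 to 111 CPM (median 96.7) at 24 h and 45.3 to 208 CPM (median 154) at 72 h. At 24 h 13 of 15 libraries, and at 72 h 14 of 15, lay above every naive library. It rose by 0.33 ± 0.091 at 24 h (adjusted p = 0.00292), stood 0.86 ± 0.14 above naive at 72 h (adjusted p = 1.34e-06), and rose by 0.53 ± 0.13 between the times (adjusted p = 0.00100).

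Etnppl had the lowest ratio to naive of the members at 72 h. It was at 11.4 to 30.5 CPM (median 17.7) in naive ipsilateral cortex, 5.60 to 18.4 CPM (median 8.27) at 24 h and 0.283 to 10.7 CPM (median 3.44) at 72 h. At 72 h all 15 libraries were below every naive library, and 11 were below every library at 24 h. The log2 change was -1.28 ± 0.22 at 24 h (adjusted p = 8.70e-06) and -2.88 ± 0.39 at 72 h (13.6% of naive, adjusted p = 6.40e-08), and the step between them was -1.61 ± 0.35 (adjusted p = 4.46e-04). The lowest library, that of LF3, rests on 3 counts, and without LF3 and QF1 the 72 h change remained called (-2.58, adjusted p = 8.93e-08).

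Aldoc also fell at both steps. It was at 506 to 950.3 CPM (median 745) in naive ipsilateral cortex, 478 to 603 CPM (median 552) at 24 h and 109.9 to 651 CPM (median 402) at 72 h. At 24 h 2 of 15 libraries lay below the naive range, and at 72 h 12 of 15. The log2 change was -0.51 ± 0.12 at 24 h (adjusted p = 6.78e-04), -1.09 ± 0.19 at 72 h (adjusted p = 9.96e-06) and -0.58 ± 0.18 between the times (adjusted p = 0.00970). The step between the times missed the threshold without LF3 (-0.39, adjusted p = 0.0531).

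The batch letters in the labels could be checked within the ipsilateral side, because batch A holds naive and 24 h mice and batch B all 3 groups, while batch C holds 72 h mice alone. All 9 members called at 24 h kept their sign in both batches. In batch A alone 8 members were lower and 1 higher, and in batch B alone 6 were lower and 0 higher. The whole table held 3645 lower and 3756 higher of 19389 genes in batch A, and 1850 lower and 2447 higher of 18713 genes in batch B. In batch B Kcnj10 (-0.40, adjusted p = 0.223), Slc1a3 (-0.55, adjusted p = 0.124) and Aldh1l1 (0.19, adjusted p = 0.487) missed the threshold. At 72 h batch B alone gave 5 lower and 3 higher members, and all 8 members called over all animals kept their sign there, with Aqp4 at 2.18 and Etnppl at -2.83. With the batch term, the 72 h estimates over all animals rest mainly on these same mice, so this agreement was no separate check. At 72 h batch B held 5 ipsilateral libraries (LF3, LM2, PF1, PF2 and PM2) and batch C held 10. Of these, LF3 stood apart and PF1 carried male transcripts. The counts of 72 h libraries outside the naive range, given above, compare CPM without a batch term and include batch C. Contralaterally, batch B held 6 and batch C 10 libraries at 72 h. Between 24 h and 72 h, 1 member was lower and 6 higher in batch B alone. Over all genes batch B alone called 2658 lower and 3631 higher of 18713 genes at 72 h, and 1252 lower and 2602 higher of 18713 genes between the times.

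In the contralateral cortex at 24 h, Glul was the 1 member of 10 that was called (background 1.29% lower). Its levels were 1313 to 1915 CPM (median 1486) in naive mice and 611 to 1542 CPM (median 1286) at 24 h, with 8 of 15 libraries below the naive range, and its log2 change was -0.34 ± 0.084 (adjusted p = 0.0181). The members' median change was -0.20, beside 5.10e-04 over all genes. Without LF3 and QF1, 723 of 18374 genes were called lower at 24 h, among them 5 members: Glul (-0.29, adjusted p = 4.12e-05), Slc1a3 (-0.20, adjusted p = 0.00416), Aldh1l1 (-0.27, adjusted p = 0.0197), Kcnj10 (-0.23, adjusted p = 0.0316) and Slc1a2 (-0.19, adjusted p = 0.0448). Batch A alone called 4 members lower (Aqp4, Kcnj10, Slc1a2 and Glul) and 128 of 18895 genes. Batch B alone called 0 members and 0 of 18191 genes in either direction by edgeR, with 1846 genes at an unadjusted p under 0.05. There Glul was at -0.36, adjusted p = 0.528, and Aqp4 (0.33), Kcnj10 (0.086) and Slc1a2 (0.026) lay above 0. Without the naive animal KM2 the change of Glul missed the threshold (-0.29, adjusted p = 0.0751).

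At 72 h no member was called against naive contralaterally by edgeR (background 0.26%) or by DESeq2, with 3 of 10 at an unadjusted p under 0.05. Etnppl had the lowest value, -0.89 ± 0.25 (adjusted p = 0.101), and it was called without the 72 h animals PF1 (-1.16, adjusted p = 0.0164) or PF2 (-0.90, adjusted p = 0.0400). Its contralateral levels were 15.5 to 32.7 CPM (median 19.5) in naive mice, 7.95 to 31.0 CPM (median 23.6) at 24 h and 2.24 to 22.9 CPM (median 13.3) at 72 h, and 11 of 16 libraries at 72 h were below the naive range. Etnppl was the 1 member called lower between 24 h and 72 h (-0.95 ± 0.24, adjusted p = 0.0155, background 0.803%). That step missed the threshold without LF3 (-0.79, adjusted p = 0.178), passed it without LF3 and QF1 (-0.90, adjusted p = 0.0342), and was not called in batch B alone (-0.87, adjusted p = 0.315).

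Within animals, the sides could be compared in 43 mice with the animal as a block. They include PF1, whose ipsilateral library carries male transcripts while its contralateral library follows its female label, so its 2 libraries may not be from 1 mouse. In naive mice no member was called between the sides, and of the 19946 genes tested 0% were called by edgeR and 0 by DESeq2, with 574 and 680 genes at an unadjusted p under 0.05. At 24 h 8 members were lower and 2 higher ipsilaterally (background 24.1% and 23.7%), and at 72 h 5 were lower and 3 higher (background 30.6% and 31.1%). The ipsilateral level was the lower one in 15 of 15 animals at 24 h for Slc1a2, Slc1a3, Gja1 and Gjb6, and in 14 of 15 for Glul, Etnppl and Aldoc, where the exception was QF1. At 72 h Aqp4, Kcnj10 and Aldh1l1 were higher ipsilaterally in 15 of 15 animals, and Slc1a2, Glul, Gjb6, Etnppl and Aldoc lower in 15 of 15. How many of all genes had the same direction in every animal was not counted, so these counts are not set beside a background.

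**Figure D3:**
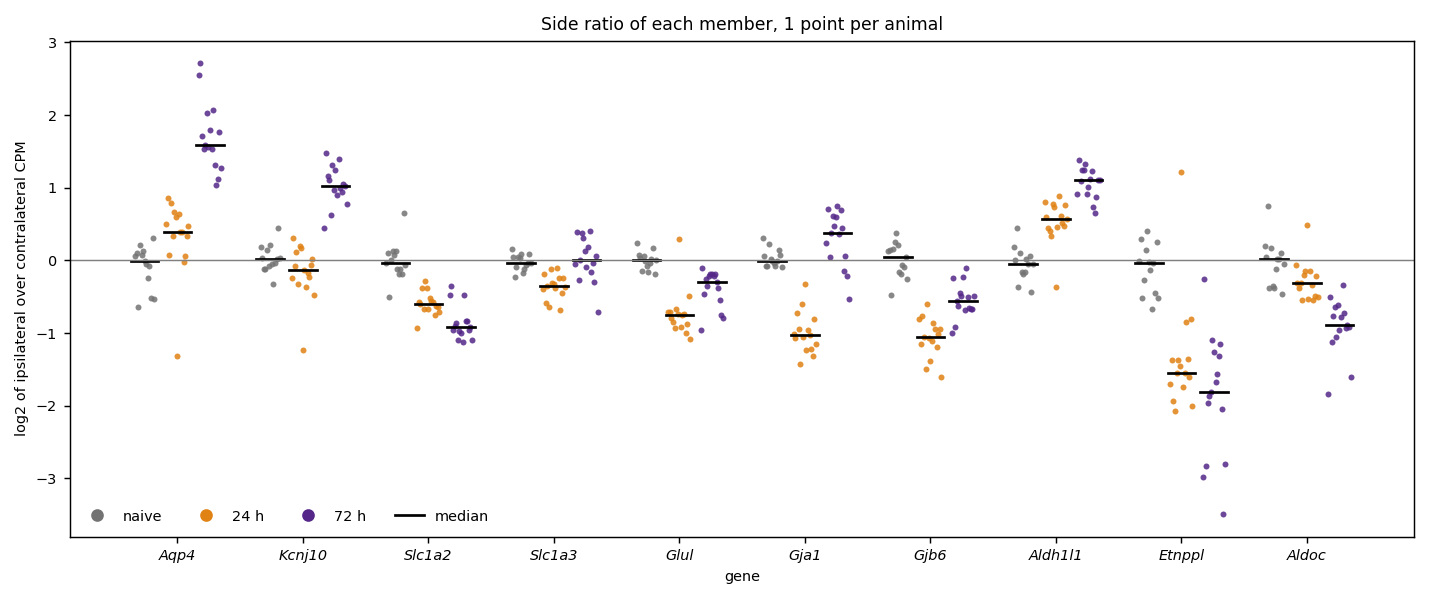
Log2 ratio of ipsilateral over contralateral CPM for each member, 1 point per animal, in naive, 24 h and 72 h mice, with medians as bars. At 72 h the Aqp4 points lie between 1.04 and 2.71, and Gja1 has a median of -1.03 at 24 h and 0.38 at 72 h.

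The side difference of Etnppl was -1.41 ± 0.17 at 24 h and -1.93 ± 0.19 at 72 h, and that of Aqp4 was 0.27 ± 0.11 at 24 h (adjusted p = 0.0348) and 1.59 ± 0.11 at 72 h. Slc1a3 (-0.093, 95% interval -0.21 to 0.027) and Gja1 (0.16, 95% interval 0.00614 to 0.32, adjusted p = 0.0648) were the members not called at 72 h, and Gja1 was called in 7 of 8 alternative fits, all but the fit with no block, for example without LF3 and QF1 (0.20, adjusted p = 0.0132). The side difference of Kcnj10 at 24 h (-0.22 ± 0.077, adjusted p = 0.0161) missed the threshold without LF3 and QF1 (-0.13, adjusted p = 0.0686). In QF1 the log2 side ratios of Aqp4 (-1.32), Kcnj10 (-1.23) and Aldh1l1 (-0.37) were the lowest of the 15 animals at 24 h. Those of Glul (0.30), Etnppl (1.21), Aldoc (0.49) and Gja1 (-0.32) were the highest.

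Set against the side difference of naive mice, the side difference had changed at 24 h in 6 members downward (Slc1a2, Slc1a3, Glul, Gja1, Gjb6 and Etnppl, background 14.7%) and in Aldh1l1 upward (background 16.0%). At 72 h it had changed in 5 downward (background 23.1%) and 3 upward (background 25.1%). Between 24 h and 72 h it moved up in 7 members (background 18.9%) and down in Slc1a2 and Aldoc (background 16.4%). The upward moves were 1.32 ± 0.15 for Aqp4, 1.21 ± 0.11 for Gja1 and 1.12 ± 0.11 for Kcnj10, and 0.26 to 0.48 for Glul, Slc1a3, Gjb6 and Aldh1l1. Without LF3 and QF1 the change at 24 h was also called for Aqp4 (0.51, adjusted p = 9.07e-04) and Aldoc (-0.33, adjusted p = 0.0168), and the upward move of Glul was 0.40, adjusted p = 1.52e-05.

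No sex difference was called in the members. In naive mice 7 genes of the whole table differed between the sexes ipsilaterally (0.0366%) and 6 contralaterally (0.0325%), and no member was among them. No gene had a sex difference in its 24 h or 72 h change on either side in edgeR (0% of genes each time), with 299 and 580 genes ipsilaterally and 584 and 672 contralaterally at an unadjusted p under 0.05. DESeq2 called 1 and 0 genes ipsilaterally and 0 and 2 contralaterally. Ipsilaterally the changes of all 10 members had the same sign in both sexes at both times, and contralaterally those of 8 of 10 at 24 h and 8 of 10 at 72 h. The ipsilateral females at 72 h include the library of PF1, which carries male transcripts, and the sex differences were not fitted without it. The difference between the sexes was widest for Etnppl at 72 h ipsilaterally, with -2.65 ± 0.44 in females and -3.12 ± 0.44 in males, a difference of 0.47 with a 95% interval of -0.46 to 1.40. Contralaterally Gjb6 was the 1 member at an unadjusted p under 0.05 at each time, without a call. Its difference, female minus male, was 0.25 (95% interval 1.52e-04 to 0.49) at 24 h and 0.29 (0.042 to 0.53) at 72 h.

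Other genes of the same pathways were grouped into 7 lists, with 58 of 59 genes measured under 1 identifier. At 24 h ipsilaterally 36 of the 58 fell and 11 rose, with a median log2 fold change of -0.39, and at 72 h 16 were lower and 19 higher, with a median of 0.0149. The counts at 72 h were 16 lower and 17 higher without LF3 and QF1, with a median of 0.0887. These counts stand beside the backgrounds given above for the same comparisons. In the list of 10 genes for the endfoot complex and volume control 6 fell and 1 rose at 24 h, and 2 were lower and 3 higher at 72 h. Gpr37l1, an astrocyte receptor, was at -0.69 ± 0.087 at 24 h and 0.48 ± 0.13 at 72 h. Hepacam, the adhesion protein that holds MLC1 at the membrane, was at -0.42 ± 0.092 at 24 h and 0.17 ± 0.14 (not called) at 72 h. The chloride channel Clcn2 was at -0.43 ± 0.069 at 24 h and -0.66 ± 0.11 at 72 h, and Trpv4, a channel opened by swelling, at 1.09 ± 0.25 at 24 h and 1.17 ± 0.37 at 72 h.

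Of 8 genes for potassium, sodium and bicarbonate, 5 fell and 1 rose at 24 h, and 2 were lower and 3 higher at 72 h. The potassium leak channels Kcnk1 (-0.57 ± 0.058 at 24 h and -0.58 ± 0.090 at 72 h) and Kcnk2 (-0.42 ± 0.083 at 24 h and -0.84 ± 0.13 at 72 h) were lower at both times. The cation-chloride cotransporter Slc12a2 was at 0.13 ± 0.090 (not called) at 24 h and 0.67 ± 0.14 at 72 h. Of 8 amino acid and GABA transporters, 6 fell and 2 rose at 24 h, and 2 were lower and 3 higher at 72 h. The GABA transporter Slc6a11 was lower at both times (-0.91 ± 0.12 at 24 h and -0.71 ± 0.18 at 72 h). Slc7a10, a transporter of serine and glycine, was at -1.21 ± 0.13 at 24 h and -0.064 ± 0.19 (not called) at 72 h, and the neutral amino acid transporter Slc1a4 at 0.76 ± 0.081 at 24 h and 0.57 ± 0.12 at 72 h.

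Of 9 genes of glutamate, glycine and serine metabolism, 8 fell and 0 rose at 24 h, and 4 were lower and 1 higher at 72 h. Aass, which starts the breakdown of lysine, was at -1.94 ± 0.19 at 24 h and -0.47 ± 0.28 (not called) at 72 h. Gldc of the glycine cleavage system was at -1.02 ± 0.14 at 24 h and -0.28 ± 0.21 (not called) at 72 h, and Prodh, which oxidises proline, at -1.36 ± 0.094 at 24 h and -1.39 ± 0.15 at 72 h. The aminotransferase Got1 was at -0.18 ± 0.052 at 24 h and -0.53 ± 0.081 at 72 h and pyruvate carboxylase (Pcx) at -0.57 ± 0.12 at 24 h and -0.68 ± 0.18 at 72 h. Of 7 genes for glycogen, lactate and glycolysis, 3 fell and 3 rose at 24 h, and 2 were lower and 3 higher at 72 h. The monocarboxylate transporters Slc16a3 (2.22 ± 0.17 at 24 h and 2.53 ± 0.24 at 72 h) and Slc16a1 (0.93 ± 0.085 at 24 h and 1.27 ± 0.12 at 72 h) rose, and the lactate dehydrogenase subunit Ldhb fell (-0.56 ± 0.086 at 24 h and -0.86 ± 0.14 at 72 h).

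Of 6 other connexins and pannexins, 1 fell and 3 rose at 24 h, and 0 were lower and 4 higher at 72 h. Gjb1, the connexin of myelinating cells, was at 1.42 ± 0.21 at 24 h and 1.96 ± 0.31 at 72 h, Gjc1 at 0.35 ± 0.13 at 24 h and 1.00 ± 0.19 at 72 h, Panx1 at 0.56 ± 0.13 at 24 h and 0.69 ± 0.20 at 72 h, and the neuronal Gjd2 at -0.76 ± 0.18 at 24 h and -0.22 ± 0.27 (not called) at 72 h. Of 10 astrocyte identity genes, 7 fell and 1 rose at 24 h, and 4 were lower and 2 higher at 72 h. Mfge8, a bridging protein for engulfment (-1.31 ± 0.096 at 24 h and -1.24 ± 0.15 at 72 h), the neurotensin receptor Ntsr2 (-0.87 ± 0.085 at 24 h and -1.03 ± 0.13 at 72 h) and Ndrg2 (-0.54 ± 0.085 at 24 h and -0.84 ± 0.13 at 72 h) were lower at both times, as was the zinc transporter Slc39a12 (-1.22 ± 0.11 at 24 h and -0.59 ± 0.16 at 72 h). The counts of the 7 lists at 24 h were the same without LF3 and QF1. At 72 h they were then 1 lower and 2 higher for the endfoot list, 2 lower and 2 higher for potassium, sodium and bicarbonate, 2 lower and 4 higher for glycogen, lactate and glycolysis, 1 lower and 4 higher for the other connexins and pannexins, 4 lower and 1 higher for astrocyte identity, and the same for the other two lists.

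**Figure D4:**
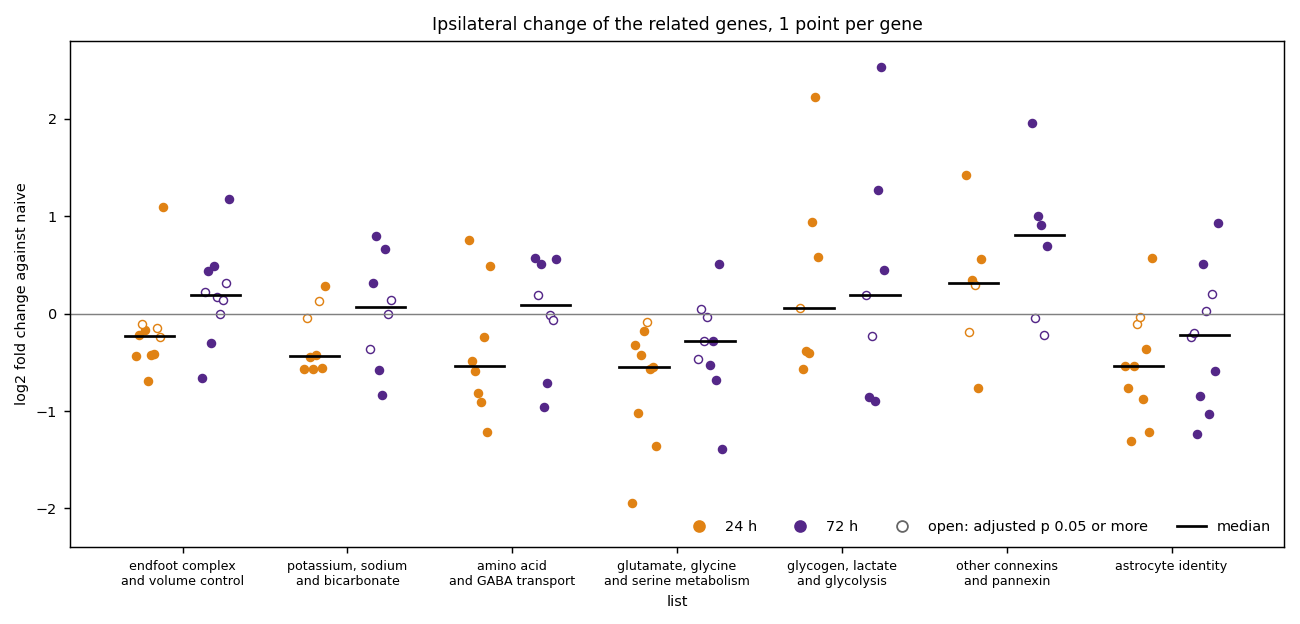
Ipsilateral log2 fold change against naive at 24 h and 72 h of the 58 related genes in 7 lists, 1 point per gene, with medians as bars and open points for an adjusted p of 0.05 or more. In the lists of amino acid transport and of glutamate, glycine and serine metabolism, 6 of 8 and 8 of 9 genes fell at 24 h.

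Markers of other cells and states moved in the ipsilateral punches at the same times. The summed level of 10 reactive astrocyte markers was 129 to 205 CPM in naive, 1732 to 3322 CPM at 24 h and 1563 to 7293 CPM at 72 h, and 10 of 10 rose at both times. Gfap was at 4.09 ± 0.15 at 24 h and 5.07 ± 0.20 at 72 h. All 8 infiltrating leukocyte markers rose at both times, with sums of 12.5 to 47.2 CPM in naive, 84.3 to 696 CPM at 24 h and 180.1 to 1389 CPM at 72 h. Of these, Plac8 had no counts in 10 and Ly6c2 in 9 of the 13 naive ipsilateral libraries. The 6 microglial markers summed to 268 to 339 CPM in naive, 245 to 324 CPM at 24 h and 257 to 1483 CPM at 72 h, with 2 lower and 2 higher at 24 h and 0 lower and 6 higher at 72 h. The lowest reactive astrocyte, leukocyte and microglial sums at 72 h were those of LF3, and the next lowest were 4276, 298.5 and 806 CPM. The 8 neuronal markers summed to 6898 to 7789 CPM in naive, 6638 to 8076 CPM at 24 h and 4036 to 11680 CPM at 72 h, with medians of 7273, 7387 and 5890 CPM. The highest value at 72 h is that of LF3, and the next highest was 7082 CPM. The neuronal calls were 2 lower and 1 higher at 24 h and 3 lower and 1 higher at 72 h.

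The 6 oligodendrocyte markers summed to 1387 to 4888 CPM in naive, 2559 to 6819 CPM at 24 h and 943 to 7279 CPM at 72 h, with 0 lower and 2 higher at 24 h and 0 lower and 4 higher at 72 h. The 5 precursor markers summed to 177 to 278 CPM in naive, 164 to 298 CPM at 24 h and 378 to 778 CPM at 72 h, with 3 lower and 1 higher at 24 h and 0 lower and 5 higher at 72 h. The lowest oligodendrocyte and precursor sums at 72 h were also those of LF3, and the next lowest were 2055 and 578 CPM. The 6 endothelial markers summed to 200.2 to 297 CPM in naive, 225 to 299 CPM at 24 h and 375 to 616 CPM at 72 h, with 1 lower and 1 higher at 24 h and 0 lower and 4 higher at 72 h. The 6 pericyte and smooth muscle markers showed 2 lower and 0 higher at 24 h and 1 lower and 3 higher at 72 h. The 6 meningeal and fibroblast markers showed 2 lower and 2 higher at 24 h and 0 lower and 4 higher at 72 h. The 6 ependymal and choroid plexus markers showed 1 lower and 1 higher at 24 h and 0 lower and 2 higher at 72 h. Without LF3 and QF1 the counts at 24 h were 3 lower and 2 higher for microglia and 2 lower and 1 higher for endothelium. At 72 h they were then 5 lower and 0 higher for neurons, 0 lower and 5 higher for oligodendrocytes, 0 lower and 5 higher for pericytes and smooth muscle and 1 lower and 4 higher for meninges and fibroblasts, and the counts of the other marker lists stayed the same. The part of these shifts in the members' changes was not tested.

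Among genes outside the members, those whose log2 CPM ran most like each member over the 87 libraries were found as a description, since the libraries share injury, depth and animals. For Aqp4 they were Ednrb (Pearson r = 0.923) and Arhgef26 (0.910), for Kcnj10 Csf1r (0.905) and Car8 (0.905), for Slc1a2 R3hdm1 (0.948) and Camk4 (0.925), and for Slc1a3 Pla2g7 (0.923). Glul ran most like Cd34 (0.923) and Mfge8 (0.885), Gja1 like P2ry12 (0.915) and Ptn (0.903), and Gjb6 like Ddit4l (0.914) and Myoc (0.913). Aldh1l1 ran most like Tubb2b (0.918) and Rplp0 (0.918), Etnppl like 2900052N01Rik (0.873) and Gpc5 (0.868), and Aldoc like Cplx2 (0.914) and Clstn1 (0.905). Among the members themselves, r was highest for Aqp4 with Kcnj10 (0.869) and for Glul with Gjb6 (0.854), and lowest for Aldh1l1 with Etnppl (-0.510).

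The values are counts over whole genes, which lie, in mm10 with the GENCODE M21 annotation, at Kcnj10 chr1:172341210-172374085, Slc1a2 chr2:102658659-102790784, Slc1a3 chr15:8634124-8710764, Glul chr1:153899944-153909723, Gja1 chr10:56377330-56402513, Gjb6 chr14:57123303-57133611, Aldh1l1 chr6:90486427-90600203, Etnppl chr3:130617448-130637521 and Aldoc chr11:78322968-78327781, with Aqp4 on chromosome 18. Some members overlap other annotated genes, and the sources used here do not give whether reads were counted by strand. The overlapping gene reached at most 5.99% of the count of Aldh1l1 (Gm45901), 2.33% of Slc1a3 (Gm37310), 0.972% of Glul (Teddm2) and 0.125% of Slc1a2 (Gm13872) in any library.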

How the data were processed

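Bulk RNA-seq counts of 88 cortical libraries were used. The authors deposited whole-number counts per Ensembl gene; alignment with HISAT2 2.0.5 and mm10 are per the submitters' processing notes, while the sources used here do not give the counting program, annotation or strand setting. Symbols and lengths came from GENCODE M21. CPM are counts scaled to a library total of 1000000. edgeR 4.0.16 (R 4.3.3) quasi-likelihood F tests used filterByExpr, TMM factors, sex by time groups and a batch term, per side; a fit of both sides used the animal as a block, since the labels name the animal of each library. Adjusted p-values (Benjamini-Hochberg over all genes tested) under 0.05 were called. Intervals are 95%. The ipsilateral fit and the fit of both sides without the block were tested on simulated counts, with a single spread for all genes and no animal or batch effect. The contralateral fit and the blocked fit were not tested in this way. Alternatives were DESeq2 1.42.0, RLE factors, no filter, no batch term, single batches, no block, no animal PF1, each library left out and, chosen after seeing the data, no LF3, no QF1 or neither. The 10 members, 7 related and 10 marker lists were chosen with earlier results of these data known. All members were named; of each related list, at most the 3 genes of smallest p at 24 h and at 72 h, and for each member the 2 genes of highest r (log2 of CPM plus 1); a few genes that this rule selects are not reported here. Aldoa, whose symbol has more than 1 identifier, was left out. The library without a group entered no comparison.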

Additional observations from a re-analysis of the deposited data

Results flagged for a closer look

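In groups of 4 to 10 libraries, 26 of 120 pairs of member and group held a highest or lowest library that stood apart from the rest by Dixon's criterion, where chance flags about 1 in 20 groups. Animal LF3 accounted for 13 of the 26. Its contralateral library was lowest among females at 72 h for Aqp4 (12.4 CPM), Kcnj10 (102 CPM), Slc1a2 (942 CPM), Slc1a3 (88.1 CPM), Glul (1157 CPM), Aldh1l1 (24.1 CPM) and Aldoc (394 CPM). Its ipsilateral library was lowest for Kcnj10 (139 CPM), Slc1a2 (679 CPM), Slc1a3 (85.2 CPM), Glul (593 CPM), Aldh1l1 (45.3 CPM) and Aldoc (109.9 CPM).

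Animal QF1 accounted for 6. Its ipsilateral library was lowest among females at 24 h for Kcnj10 (109 CPM) and Gjb6 (16.5 CPM) and highest for Etnppl (18.4 CPM), and its contralateral library was lowest for Glul (611 CPM) and Gja1 (68.0 CPM) and highest for Aldh1l1 (108 CPM). Of the other libraries, the contralateral one of LM2 (male, 72 h) was lowest for Aqp4 (55.3 CPM) and highest for Gjb6 (61.5 CPM) and Aldoc (919 CPM). The contralateral library of KF3 (female, naive) was lowest for Kcnj10 (167 CPM) and Gja1 (120.4 CPM). The contralateral library of QM1 (male, 24 h) was highest for Kcnj10 (245 CPM), and the ipsilateral library of TM2 (male, 72 h) was lowest for Slc1a3 (252 CPM).

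The log2 difference between the sides itself differed between 24 h and 72 h in 9 members by edgeR's test of that difference, given as 72 h minus 24 h. It was higher at 72 h for Aqp4 (1.32), Gja1 (1.21), Kcnj10 (1.12), Aldh1l1 (0.48), Gjb6 (0.45), Slc1a3 (0.32) and Glul (0.26), and lower for Slc1a2 (-0.34) and Aldoc (-0.68).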

How the results depend on the processing

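DESeq2 left 159 of 162 results unchanged, and size factors by RLE 161 of 162. For a single gene, unchanged means the same side of the threshold and the same direction. The 162 results also include counts of called genes, which were taken as unchanged when close to the reported count, and need not be equal to it. The causes of the changes below were not tested. Without the filter on low counts, 2 related genes fell between 24 h and 72 h ipsilaterally (2294 of 39151 genes), against 4 (2933 of 19126 genes). In several fits the side difference was higher than in naive at 24 h in 2 members, against 1 (3182 of 19946 genes). These were the fits with no filter (3043 of 40707 genes), DESeq2 (3619 of 19946 genes), no LF3 (3692 of 19902 genes), no QF1 (3143 of 19915 genes) and neither animal (3644 of 19860 genes). In batch B alone 0 members and 5 related genes were higher at 24 h, 10 related genes were higher at 72 h, and 1 member and 1 related gene fell between the times. Contralaterally, the members lower at 24 h numbered 0 without the batch term (209 of 18436 genes), 4 in batch A (128 of 18895 genes), 0 in batch B (0 of 18191 genes) and 5 without LF3 and QF1 (723 of 18374 genes), against 1 (237 of 18436 genes). Those lower at 72 h numbered 3 without the batch term (1047 of 18436 genes), against 0, and those lower at 72 h than at 24 h numbered 0 in batch B (0 of 18191 genes), against 1. Without LF3 and QF1, 2 members rose ipsilaterally at 24 h (4793 of 19037 genes), against 1 (4375 of 19126 genes).

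All reversals were in contralateral changes that were not called. In batch B alone they were Aqp4 (0.33), Kcnj10 (0.086), Slc1a2 (0.026) and Etnppl (-0.14) at 24 h, Aqp4 (0.29) and Kcnj10 (0.11) at 72 h, and Aqp4 (-0.039) between the times. For the step between the times they were Gjb6 (-0.042) and Aldh1l1 (0.10) without the batch term and Aldoc (-0.00685) without the filter. Without LF3 and QF1 they were Slc1a2 (0.069), Slc1a3 (0.12), Gjb6 (-0.025), Aldh1l1 (0.079) and Aldoc (-0.059) between the times, and Aqp4 at 72 h (0.14).

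Without the replicate block of the animal, 1 member was higher ipsilaterally at 24 h (4199 of 19946 genes), against 2 (4719 of 19946 genes), with Aqp4 at 0.31. Slc1a3 then lost its call for the side difference at 24 h against naive (-0.37) and at 72 h against 24 h (0.36). The block changed no other call of a member.

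With each library left out in turn, the members higher ipsilaterally at 24 h numbered 1 to 2, those lower at 72 h than at 24 h 1 to 3, and the related genes lower in that step 2 to 5. Contralaterally the members lower numbered 0 to 5 at 24 h, 0 to 1 at 72 h and 0 to 1 between the times. Counts over all genes were not kept for these fits, so none of these ranges can be set beside a background. Contralateral changes of single genes whose sign changed in some of these fits ranged, at 72 h against naive, from -0.19 to 0.14 for Aqp4 and -0.141 to 0.00761 for Glul. Between the times they ranged from -0.039 to 0.29 for Aqp4, -0.072 to 0.081 for Slc1a2, -0.14 to 0.14 for Slc1a3, -0.00762 to 0.0895 for Gjb6, -0.16 to 0.013 for Aldh1l1 and -0.080 to 0.058 for Aldoc. Etnppl at its lowest rests on 3 counts, so counting error limits its value there.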

Other observations

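The ipsilateral library of animal PM1, which the labels put in no single group, held 283 CPM of Aqp4, 472 of Kcnj10, 1418 of Slc1a2, 362 of Slc1a3 and 1091 of Glul. It held 149.9 CPM of Gja1, 35.0 of Gjb6, 143 of Aldh1l1, 3.79 of Etnppl and 408 of Aldoc. Each of these 10 values lay inside the range of the 15 ipsilateral libraries at 72 h.

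P2ry12 and Csf1r, receptors of microglia that were among the genes running most like Gja1 and Kcnj10, were named after their values were seen. In the ipsilateral cortex P2ry12 was at -2.09 ± 0.13 at 24 h and 0.70 ± 0.19 at 72 h, and Csf1r at -0.26 ± 0.12 (not called) at 24 h and 1.42 ± 0.17 at 72 h, as log2 fold changes against naive by edgeR.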
